A study of Homo sapiens with 2 samples.

Results

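Described here are 8 genes, namely the transcription factor genes FOSL1, ATF3, JUND, EGR3 and KLF4 and the stem-cell associated genes MSI1, ALDH1A1 and ALDH1A3, in MiaPaCa pancreatic cancer cells with and without silencing of the transcription factor MYB. They were picked by name from the 836 loci of the authors' deposited table, with their values known, so their differences are a description and no test is given. Each has 1 record in that table. RNA was sequenced from 2 libraries, 1 per group. The Scr library came from cells transfected with the scrambled control plasmid pGFP-V-RS-Scr, and the shMyb library from cells transfected with the hairpin plasmid pGFP-V-RS-shMYB. Both groups were stable pooled populations kept in puromycin at 2 μg/ml, not single clones. The genotype label of the Scr library reads MYB-overexpression, although the protocols name only the scrambled plasmid for it, and that of the shMyb library reads MYB-silenced. MiaPaCa is an established human pancreatic cancer cell line. Of 7 epithelial and cytoskeletal markers (KRT8, KRT18, KRT19, KRT7, EPCAM, CDH1 and VIM), 0 were among the listed loci, so the cell type could not be checked on this table.

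AP-1 is a family of dimeric transcription factors built from JUN, FOS and ATF proteins, which pair through leucine zippers and bind short palindromes such as TGACTCA and TGACGTCA. EGR proteins are zinc finger factors whose genes, like many AP-1 genes, are switched on within minutes of growth factor or stress signals. KLF4 is a zinc finger factor of the Krüppel-like family, best known as a reprogramming factor and as a regulator of epithelial differentiation. MSI1 is an RNA-binding translational regulator of neural and epithelial progenitors. ALDH1A1 and ALDH1A3 oxidise retinal to retinoic acid, and aldehyde dehydrogenase activity is widely used to mark stem-like tumour cells.

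The 250 bases before the annotated transcription start are shown for 4 of the genes, because they set the ALDH pair side by side and hold the AP-1 type palindrome of JUND. They are RefSeq sequences of build GRCh38.p14, written 5′ to 3′ along the gene. Capitals mark every match, on either strand, to TGACGTCA (the cAMP response element, a site for ATF and JUN dimers), TGACTCA (the AP-1 site), AACGG or AACTG (2 forms of the core that MYB proteins bind) and GGGCGG (the GC box of SP and KLF proteins). Matches that abut or overlap run together, as AACGG and GGGCGG do once in JUND and a pair of GC boxes does in ALDH1A3.
ALDH1A1, chr9:72953054-72953303, minus strand: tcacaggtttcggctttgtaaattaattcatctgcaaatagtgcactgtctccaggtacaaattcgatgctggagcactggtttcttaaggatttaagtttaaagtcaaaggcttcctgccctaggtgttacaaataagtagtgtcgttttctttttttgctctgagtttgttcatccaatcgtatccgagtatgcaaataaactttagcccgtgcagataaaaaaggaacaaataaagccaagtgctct
ALDH1A3, chr15:100879581-100879830, plus strand: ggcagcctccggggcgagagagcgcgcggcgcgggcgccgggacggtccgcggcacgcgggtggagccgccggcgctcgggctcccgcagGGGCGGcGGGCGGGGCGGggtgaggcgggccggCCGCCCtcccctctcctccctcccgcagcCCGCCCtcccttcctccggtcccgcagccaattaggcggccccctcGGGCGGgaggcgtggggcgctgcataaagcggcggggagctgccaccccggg
JUND, chr19:18281623-18281872, minus strand: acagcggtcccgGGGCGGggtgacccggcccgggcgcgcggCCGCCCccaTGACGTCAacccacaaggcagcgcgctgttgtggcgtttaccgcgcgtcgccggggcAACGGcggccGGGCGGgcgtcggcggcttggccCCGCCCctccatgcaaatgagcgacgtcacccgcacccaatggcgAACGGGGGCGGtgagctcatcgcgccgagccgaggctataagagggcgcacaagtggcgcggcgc
KLF4, chr9:107489770-107490019, minus strand: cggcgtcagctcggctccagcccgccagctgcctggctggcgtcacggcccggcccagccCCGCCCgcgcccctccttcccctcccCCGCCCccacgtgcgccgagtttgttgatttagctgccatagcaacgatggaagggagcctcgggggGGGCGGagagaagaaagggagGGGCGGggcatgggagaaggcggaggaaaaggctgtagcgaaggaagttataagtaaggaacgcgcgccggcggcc

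The ALDH windows were unlike each other in composition. That of ALDH1A1 had a GC content of 38.4%, 6 CpG dinucleotides and no match to any of the 5 motifs. That of ALDH1A3 had a GC content of 82.4%, 38 CpG dinucleotides and 6 GC boxes. The JUND window (74.8% GC, 40 CpG) held the only TGACGTCA of the 6 windows searched, at 200 to 193 bases before the start. It also held 2 matches to AACGG and 5 GC boxes. The KLF4 window (69.2% GC, 25 CpG) held 4 GC boxes and no match to the other motifs. ATF3 has 2 annotated starts in the same table, and each of their windows held 1 match to AACTG, with 1 GC box in the window of the first start. Among all 35116 windows of this length, TGACGTCA was found in 1.65%, TGACTCA in 4.20%, AACGG in 16.5%, AACTG in 34.1% and GGGCGG in 42.6%. The median GC content was 58.0% over these windows. For listed loci the median of a gene's windows was taken first. The median of these values was 63.6% for the 378 lower loci and 68.8% for the 200 higher loci for which a window was found. A match is a description of letters, not a site shown to be bound. FOSL1, MSI1 and EGR3 are named without a sequence and were not searched for motifs.

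MYB, the targeted gene, was at 981 FPKM in the Scr library and 0.554 FPKM in the shMyb library. Across the 8 genes, 4 were lower and 4 were higher in the shMyb library, and the AP-1 and ALDH genes among them were divided between the directions. The lower genes were ALDH1A1, FOSL1, ATF3 and KLF4, and the higher genes were EGR3, JUND, MSI1 and ALDH1A3. Levels are in FPKM, the authors' fragment values scaled to transcript length and to mapped fragments. Each log2 ratio is log2(shMyb + 0.5) minus log2(Scr + 0.5), so a negative value means lower in the shMyb library, and the added 0.5 FPKM understates the difference of weakly expressed genes. A difference of at least 2-fold (a log2 ratio at or beyond 1 in size) was reached by 3 lower genes (ALDH1A1, FOSL1 and ATF3) and 2 higher genes (EGR3 and JUND) with 0.5 FPKM added. KLF4 and MSI1 missed it only through that addition, since without it, on the log2 ratios of the authors' deposited table, 4 lower and 3 higher genes reached 2-fold. The 8 genes belong to the 797 listed loci whose mean over both libraries reached 1 FPKM. Of these loci, 24.7% were lower and 19.9% were higher by that much, while 62.4% were lower and 37.6% higher by any amount. The median log2 ratio was -0.07 for the 8 genes and -0.80 for these 797 loci. The table holds only loci with an unadjusted p-value of up to 0.04995 from the authors' comparison of the libraries, so every listed locus had to differ, and nothing is read from these counts. With 1 library per group there is no spread between replicates to set these differences against. The authors' p-values, given below for single genes, cannot measure such a spread either. In bulk RNA, fewer cells that express a gene and less RNA of it per cell cannot be told apart.

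**Figure D1:**
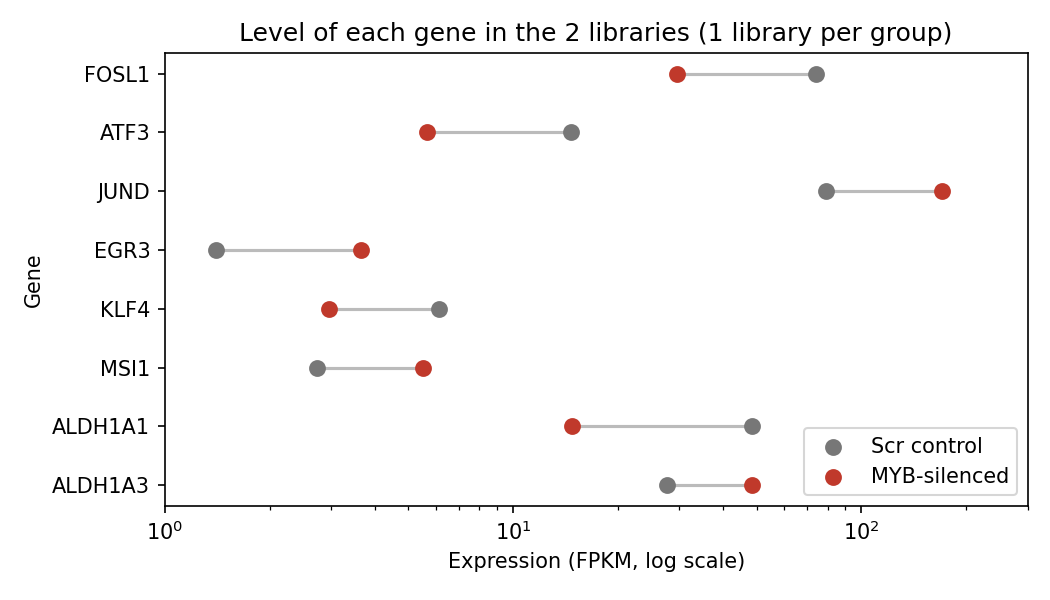
Expression of each of the 8 genes in the Scr control library (grey) and the MYB-silenced library (red), in FPKM on a log axis, 1 point per library with a line joining them. JUND is the highest gene in both libraries, at 79.2 and 170 FPKM, and the lines of FOSL1, ATF3, KLF4 and ALDH1A1 run to lower values while the others run to higher values.

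FOSL1 (chromosome 11, 65659692 to 65667997, minus strand, hg19) encodes FRA1, a FOS family protein without the transactivation domain of FOS that is often abundant in RAS-driven carcinoma cells. It was at 73.9 FPKM in the Scr library and at 29.6 FPKM in the shMyb library, or 40.0% of the control (log2 ratio -1.31). It ranked 85 of 836 from the lowest log2 ratio. In the authors' deposited table its p-value is 0.00035.

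ATF3 (chromosome 1, 212738676 to 212794119, plus strand, hg19) encodes a stress-induced member of the ATF family that represses transcription as a homodimer and pairs with JUN proteins. It was at 14.7 FPKM in the Scr library and at 5.66 FPKM in the shMyb library, or 38.6% of the control (log2 ratio -1.30). In the authors' deposited table its p-value is 0.00255. FOSL1 and ATF3 thus differed by nearly the same proportion. FOSL1 was 5.04 times the level of ATF3 in the Scr library and 5.23 times in the shMyb library.

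JUND (chromosome 19, 18390563 to 18392432, minus strand, hg19) encodes the JUN family member that is present in most resting cells and is known to slow the proliferation of fibroblasts. It was at 79.2 FPKM in the Scr library and at 170 FPKM in the shMyb library, or 2.15 times the control (log2 ratio 1.10). In the authors' deposited table its p-value is 0.00395. Its rank by level among the 836 listed loci was 81 in the Scr library and 24 in the shMyb library. JUND and FOSL1 were at similar levels in the Scr library, where the FPKM of FOSL1 was 0.934 times that of JUND. In the shMyb library this ratio was 0.174. FOSL1 made up 48.3% of the summed FPKM of the pair in the Scr library and 14.8% in the shMyb library. ATF3 was at 0.185 times the level of JUND in the Scr library and at 0.0332 times in the shMyb library. On the log2 scale the difference between the ratios was 2.41 for JUND minus FOSL1 and 2.40 for JUND minus ATF3. The summed FPKM of FOSL1 and JUND was 153 in the Scr library and 200.1 in the shMyb library.

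**Figure D2:**
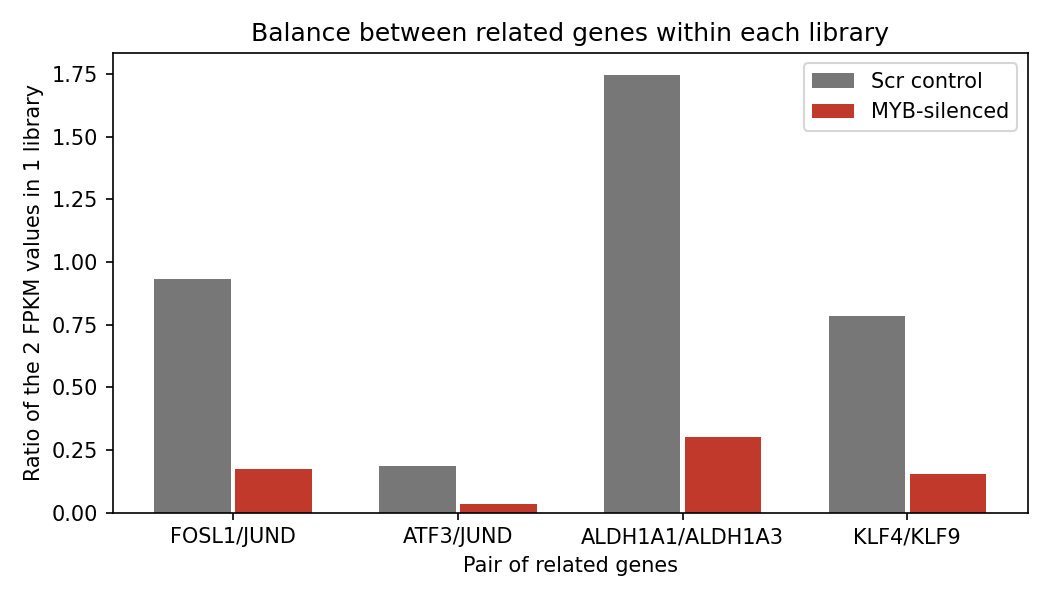
FPKM of the first gene divided by FPKM of the second gene within 1 library, for 4 pairs of related genes, in the Scr control library (grey) and the MYB-silenced library (red). The gene that was lower in the MYB-silenced library is always the first of its pair, so each red bar is the shorter one by that choice, from 0.934 to 0.174 for FOSL1 over JUND and from 1.75 to 0.303 for ALDH1A1 over ALDH1A3.

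Of 30 AP-1, ATF and other basic leucine zipper genes looked for, the table lists 4, of which 2 were lower and 2 higher (median log2 ratio -0.23). The gene beside these 3 was CEBPB, a basic leucine zipper factor of inflammation and differentiation, at 28.4 FPKM in the Scr library and 51.1 FPKM in the shMyb library (log2 ratio 0.84). FOS, FOSB, FOSL2, JUN and JUNB were not among the listed loci, so their levels were not analysed here. None of 27 genes of the MAPK and JNK cascades and their feedback phosphatases and Sprouty proteins, which act upstream of AP-1, was listed. Their levels were not analysed here, and nothing is read from their absence.

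EGR3 (chromosome 8, 22545174 to 22550815, minus strand, hg19) encodes an immediate-early zinc finger factor with roles in lymphocytes, muscle spindles and neurons. It was the weakest of the 8 genes in the Scr library, at 1.40 FPKM, and was at 3.66 FPKM in the shMyb library. This is 2.61 times the control level and a log2 ratio of 1.13, which is 1.38 without the added 0.5 FPKM in the authors' deposited table. The p-value there was 0.01285. In absolute terms the difference was 2.26 FPKM. In GENCODE release 29 the gene overlaps the non-coding gene AC055854.1 on the opposite strand. No source used here states whether counting respected strand. Without strand, reads from any stretch that the exons of these 2 genes share cannot be told apart, and the value of EGR3 is uncertain to that extent. The overlap was found from whole gene spans, so whether exons are shared was not determined.

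Its relative EGR1, a broadly induced EGR gene, was higher as well, at 24.9 FPKM in the Scr library and 45.4 FPKM in the shMyb library (log2 ratio 0.85). EGR1 was 17.7 times the level of EGR3 in the Scr library and 12.4 times in the shMyb library, so in both libraries most EGR transcripts among the listed genes were those of EGR1. Of the 19 EGR, co-repressor and other immediate-early genes looked for, 4 were listed, 2 higher (EGR1 and EGR3) and 2 lower, with a median log2 ratio of -0.0029. The lower genes were SRF and BTG2. SRF, the serum response factor that binds the promoters of many immediate-early genes, was at 26.4 FPKM in the Scr library and 14.3 FPKM in the shMyb library (log2 ratio -0.86). BTG2, an antiproliferative immediate-early gene, was at 15.3 FPKM in the Scr library and 7.33 FPKM in the shMyb library (log2 ratio -1.02).

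KLF4 (chromosome 9, 110247133 to 110252503, minus strand, hg19) was at 6.11 FPKM in the Scr library and at 2.96 FPKM in the shMyb library, or 48.5% of the control (log2 ratio -0.93). Its p-value of 0.04145 and that of MSI1, 0.04295, were the closest of the 8 genes to the highest p-value in the authors' deposited table. The other listed gene among 21 of the KLF and SP families was KLF9, a hormone-responsive factor of the family, which was higher. KLF9 was at 7.77 FPKM in the Scr library and at 19.3 FPKM in the shMyb library (log2 ratio 1.26). KLF4 was therefore at 0.786 times the level of KLF9 in the Scr library and at 0.154 times in the shMyb library. KLF4 was 4.35 times the level of EGR3 in the Scr library and 0.809 times in the shMyb library, so the order of these zinc finger genes was reversed.

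MSI1 (chromosome 12, 120779133 to 120807033, minus strand, hg19) was at 2.74 FPKM in the Scr library and at 5.52 FPKM in the shMyb library, or 2.01 times the control (log2 ratio 0.89). It thus had the direction opposite to that of KLF4, from a lower starting level. KLF4 was 2.23 times the level of MSI1 in the Scr library and 0.537 times in the shMyb library, a difference of 1.82 between their log2 ratios. Of 22 stem-cell associated regulators and markers looked for, the 4 listed were KLF4, MSI1, ALDH1A1 and ALDH1A3, with a median log2 ratio of -0.07. POU5F1, SOX2, NANOG, PROM1, CD44 and CXCR4 were not among the listed loci and were not analysed here.

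ALDH1A1 (chromosome 9, 75515578 to 75580524, minus strand, hg19) had the lowest log2 ratio of the 8 genes, and ranked 43 of 836 from the lowest. It was at 48.5 FPKM in the Scr library and at 14.8 FPKM in the shMyb library, or 30.4% of the control (log2 ratio -1.68). In the authors' deposited table its p-value is 5e-05.

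ALDH1A3 (chromosome 15, 101420009 to 101456830, plus strand, hg19) was at 27.7 FPKM in the Scr library and at 48.6 FPKM in the shMyb library, or 1.75 times the control (log2 ratio 0.80). In the authors' deposited table its p-value is 0.0278. The order of the 2 paralogues was therefore reversed between the libraries. ALDH1A1 was 1.75 times the level of ALDH1A3 in the Scr library, and ALDH1A3 was 3.30 times the level of ALDH1A1 in the shMyb library. Their summed FPKM was 76.2 in the Scr library and 63.4 in the shMyb library, while the share of ALDH1A1 in that sum was 63.6% and 23.3%. In GENCODE release 29 ALDH1A3 overlaps the antisense genes AC015712.2 and AC015712.7 and, on its own strand, AC015712.5, so its value may hold reads of these genes. The span of ALDH1A1 in that release, which is longer than its record in the deposited table, overlaps the pseudogene CYP1D1P on the opposite strand, and whether the record reaches it was not determined.

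Of 19 aldehyde dehydrogenase genes looked for, the table lists 4, of which 2 were lower and 2 higher (median log2 ratio -0.32). ALDH9A1, an aldehyde dehydrogenase of carnitine synthesis, was at 57.7 FPKM in the Scr library and 21.0 FPKM in the shMyb library (log2 ratio -1.44). ALDH3B1, which oxidises lipid-derived aldehydes, was at 11.0 FPKM in the Scr library and 22.8 FPKM in the shMyb library (log2 ratio 1.02). ALDH9A1 was 5.24 times the level of ALDH3B1 in the Scr library and 0.921 times in the shMyb library. None of 17 other genes of the retinoid pathway (retinol dehydrogenases, retinoid-binding proteins, CYP26 enzymes and retinoid receptors) was listed. Their levels were not analysed here, and nothing is read from their absence.

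**Figure D3:**
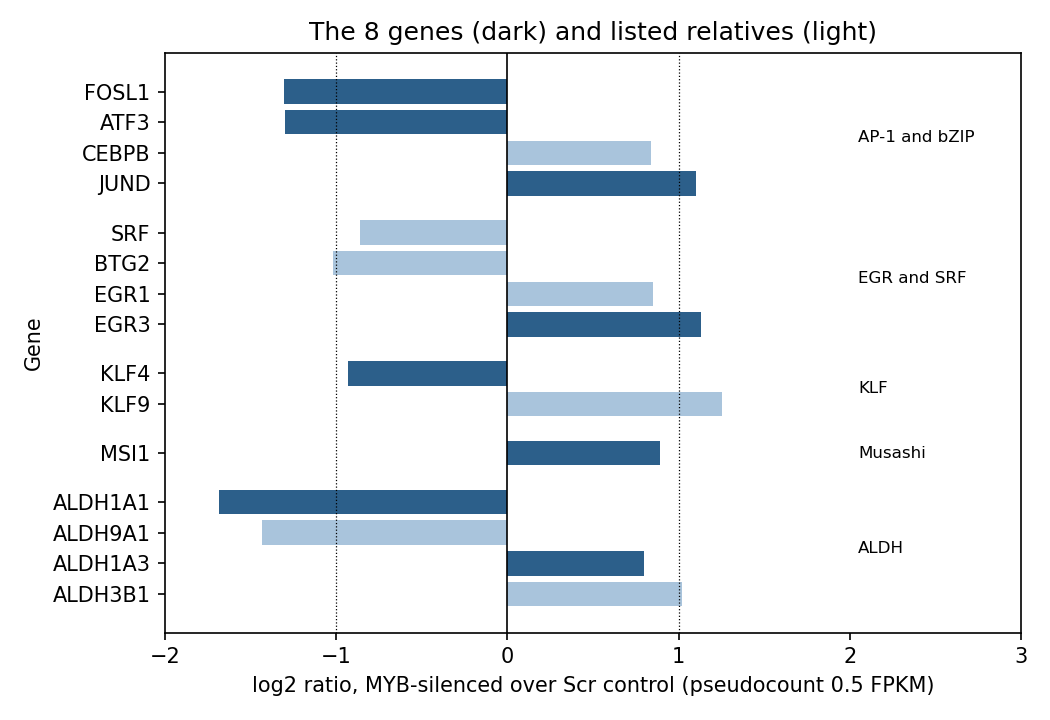
Log2 ratio of FPKM, MYB-silenced over Scr control with 0.5 FPKM added, for the 8 genes (dark bars) and the 7 listed relatives (light bars), grouped by family, with dotted lines at 2-fold. The AP-1, EGR, KLF and ALDH groups each hold bars on both sides of 0, from -1.68 for ALDH1A1 to 1.26 for KLF9.

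Transcript composition moved with direction over the listed loci, and the 8 genes are given beside it. Transcript GC content, the median over the GENCODE release 29 transcripts of a gene, was found for 822 of the 836 loci (98.3%), with a median of 44.6% for lower loci and 60.4% for higher loci. Among the lower genes it was 43.1% for ALDH1A1, 50.9% for ATF3, 54.8% for KLF4 and 60.1% for FOSL1. Among the higher genes it was 55.3% for ALDH1A3, 59.0% for MSI1, 64.5% for EGR3 and 69.7% for JUND. The groups overlap, since FOSL1 lies above ALDH1A3 and MSI1. All annotated transcripts of a gene entered these values, short ones included, and which of them the cells expressed was not determined. The median transcript length ran from 698 bases for MSI1 to 2174.5 for KLF4. When the loci were split into 5 bins of GC content, ALDH1A1 fell in the second bin, where 87.2% of loci were lower, and ATF3 in the third, where 68.9% were lower. FOSL1, KLF4, MSI1 and ALDH1A3 shared the fourth bin (53.8% to 60.8% GC), where 48.8% of loci were lower, so the fourth bin held 2 of the lower and 2 of the higher genes. JUND and EGR3 fell in the highest bin, where 88.5% of loci were higher. The part of GC content in these differences was not tested.

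**Figure D4:**
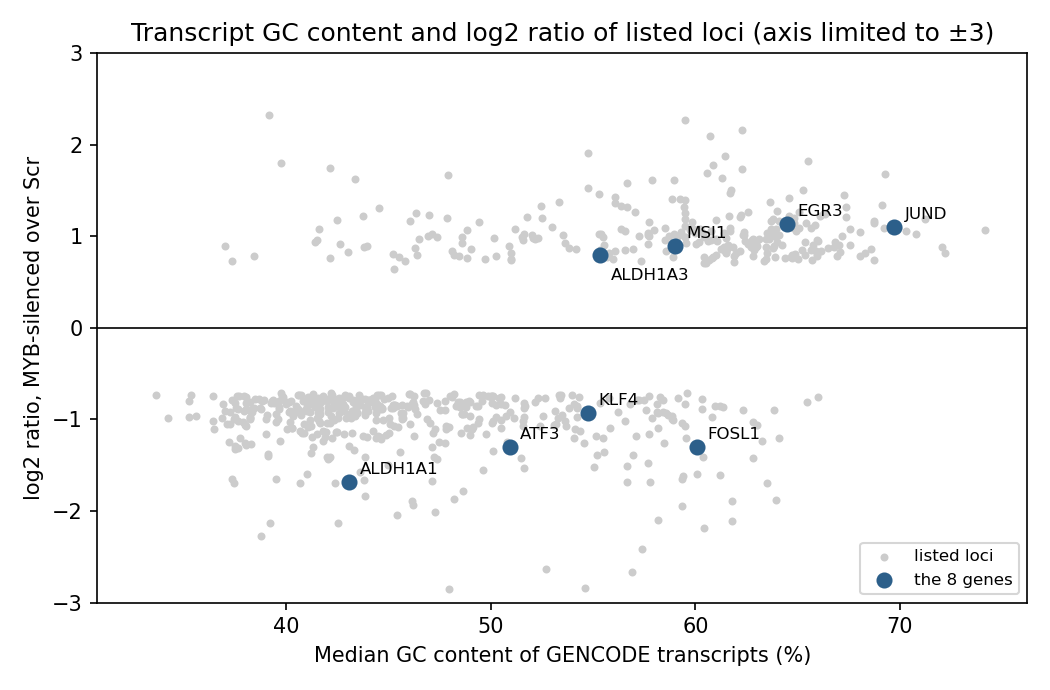
Log2 ratio of FPKM (vertical, limited to 3 in either direction, which leaves 27 of the 784 loci off the axis) against median transcript GC content (horizontal, percent) for listed loci past the level filter of 1 FPKM (grey) and the 8 genes (blue). JUND and EGR3 lie at the GC-rich end among mostly higher loci, and FOSL1, at 60.1% GC, lies below 0 at a GC content where loci of both directions occur.

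The loci nearest to each gene, by the Euclidean distance between log2(FPKM + 0.5) values of the 2 libraries, give its pattern among the other listed loci. With only 2 values per locus this likeness covers level and ratio alone. FOSL1 was closest to CCDC58 (distance 0.056) and to the transcriptional regulator BCLAF1 (0.088), and ATF3 to the cytidine deaminase gene CDA (0.097) and to OSR1 (0.114). JUND was closest to the tubulin gene TUBB3 (0.051) and then, at a larger distance of 0.298, to the MAPK-interacting kinase gene MKNK2. EGR3 was closest to the adaptor gene SHC2 (0.032) and the BMP antagonist gene CHRD (0.120). KLF4 was closest to the keratin gene KRT13 (0.012), which was at 6.06 FPKM in the Scr library and 2.95 FPKM in the shMyb library, and then to DEM1 (0.085). MSI1 was closest to C19orf26 (0.0073) and TRIM16 (0.055). ALDH1A1 was closest to the metallothionein gene MT1M (0.069), at 46.2 FPKM in the Scr library and 14.9 FPKM in the shMyb library, and its next locus, CHORDC1, lay at 0.362. ALDH1A3 was closest to the circadian transcription factor gene DBP (0.024) and to CEBPB (0.078).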

How the data were processed

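The authors' deposited table gives 1 FPKM value per locus for each of the 2 libraries. Beside it the authors deposited a signed fold score, a log2 ratio without pseudocount and an unadjusted p-value. Per the submitters' processing notes, the tools were CASAVA 1.8.2, TopHat, Bowtie and Cufflinks, and the build was hg19. Not given in the sources used here are the role of each tool, the annotation, the use of strand and any scaling between libraries. The 836 listed loci are a selected set. No counts or totals are given, so depth is unknown, and no interval or detection floor was computed.

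Log2 ratios were recomputed with a pseudocount of 0.5 FPKM (Python 3.11.15, pandas 2.3.3, numpy 2.4.6). Counts of 2-fold differences and list medians used loci whose mean reached 1 FPKM. Named are the 8 genes, MYB, every listed gene of 7 gene lists, and the 2 loci nearest to each of the 8 that are recorded under 1 gene name. Whether such a locus also spans other genes was not checked. Members and lists were chosen with earlier results of these data known. Start coordinates of the table were raised by 1, taking them to count from 0. GENCODE and RefSeq tables (GRCh38) gave transcripts, overlaps and promoters, and no coordinate was converted. Promoter windows were searched for 5 of the 8 genes. FOSL1 and MSI1 had no entry among the promoter sequences, and EGR3 was left out of the search. Alternatives were other pseudocounts, thresholds and level filters, centring, and, chosen after seeing the data, no pseudocount.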

Additional observations from a re-analysis of the deposited data

How the results depend on the processing

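A pseudocount cannot change the direction of a gene, and thresholds and level filters were not applied to the ratios of single genes. Of the settings run only centring could turn a direction, and only for the lower genes. The 8 genes kept their direction under it. Centring, which subtracts the median over all 836 loci (-0.80) although these were selected for differing, moved the log2 ratios to -0.51 for FOSL1, -0.50 for ATF3, 1.90 for JUND, 1.93 for EGR3, -0.13 for KLF4, 1.69 for MSI1, -0.88 for ALDH1A1 and 1.60 for ALDH1A3. The 3 lower genes at 2-fold then became 0 and the 2 higher genes became 4. At 3-fold they were 1 and 0, and at 1.5-fold 4 and 4. The lower and higher genes at 2-fold were 4 and 3 without a pseudocount, 4 and 2 with a pseudocount of 0.1, and 3 and 1 with a pseudocount of 1. The shares over all listed loci were not computed at these other settings, so nothing about the 8 genes is read from these counts. Centring turned the sign of the list medians for AP-1 (0.57), EGR (0.79), ALDH (0.48) and stem-cell genes (0.73), and gave 0.96 for KLF and SP. The EGR median was 0.0015 with a pseudocount of 1 and -0.86 at a mean of at least 5 FPKM, where KLF and SP had 1.26 from KLF9 alone. The differences between related genes moved by less than 1.5-fold with no pseudocount and with pseudocounts of 0.1 and 1. No library could be left out, and no paired analysis was possible because each group has 1 library. Depth is unknown, so the weakly expressed genes EGR3, MSI1 and KLF4 are the least certain.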
